A study of Mus musculus with 12 samples.

Results

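The copying of DNA in S phase and the passage from G1 into S depend on a set of proteins whose transcripts are described here in MC38-idAdpgkG cells. The set holds 45 genes of the 27179 in the count table. They were taken from a list of names set by function, and the rule uses no measured value, but the list was chosen with earlier results of these data known. By role they are 10 genes of origin licensing, 6 of helicase activation, 6 of polymerases and primase, 8 of the sliding clamp, its loader and Okazaki fragment joining, 3 of single-strand binding, 4 of nucleotide supply, 4 regulators of G1/S and 4 of chromatin and histone supply. All 45 were found in the table and all 45 passed the filter on low counts, with at least 585 reads for every gene in every library.

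MC38-idAdpgkG is a line made from MC38, a colon adenocarcinoma line of C57BL/6 mice, by stable transfection. Its construct overexpresses a mutated Adpgk (R304M), a model neoantigen, joined to turboGFP, and is switched on by doxycycline. The product can be degraded through dTAG-13, a small molecule that brings a tagged protein to a ubiquitin ligase. By its title, the study set up mass spectrometry of neoepitopes that MHC class I displays. RNA was enriched for poly(A) and sequenced from cells under 4 treatments. Mouse interferon-gamma at 20 ng/mL was present in every culture for 51 h, the controls included. The control group had nothing else. The doxycycline group also had 1 µg/mL doxycycline for 51 h. The dTAG-13 group had 1 µM dTAG-13 during the last 3 h only, following 48 h on interferon-gamma. The doxycycline plus dTAG-13 group, called the combination below, had doxycycline throughout and dTAG-13 for the last 3 h. The line was passaged with a doubling time of 18 h. Each group had 3 libraries, which are technical replicates of 1 culture, so errors and p-values describe the spread between libraries of a culture, and the treatment and the culture cannot be told apart. The sources used here do not give the promoter of the construct or say whether the line is 1 clone.

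Replication starts in G1, when the origin recognition complex, Cdc6 and Cdt1 load the MCM helicase onto DNA. In S phase Cdc45 and the GINS complex switch the helicase on, and primase, the replicative polymerases, the clamp PCNA and its loader RFC copy both strands. Many of these genes are transcribed through E2F factors, which cyclin D and cyclin E kinases release from the retinoblastoma protein in late G1, and a second set of genes, for mitosis, follows in G2.

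The starts of these genes were searched for the letters that E2F factors are known to bind, since the genes are known as E2F targets and differed in both directions below. RefSeq promoter windows of GRCm38.p6, from 250 bases before to 50 after an annotated start, were matched to 36 of the 45 genes. TTTGGCG or TTTCCCG was found, on either strand, in 17 of the 36 (47.2%), against 6.8% of the 18458 genes with such a window and 9.8% of the tested ones. With TTTCGCG or TTTGCCG also allowed, the share was 52.8% against 9.1% of all genes with a window. CCAAT, a word of G2/M promoters that overlaps none of these, was in 23 of the 36 (63.9%) against 42.2% of all genes with a window. A match is a description of the letters and shows no binding. Below are the 120 bases before the start of 6 of these genes, 5′ to 3′ on the gene's own strand, with the E2F words of either list in capitals. These 6 were picked among the few genes with an E2F word in these 120 bases, so they are not typical of the set. Orc1, which was higher after dTAG-13, also held 1 word there, and another window of Fen1 held none. Mcm6, Chaf1a and Fen1 were lower after dTAG-13, and Rpa3, Gins3 and Rfc3 were higher, so the words stand before genes of both directions. Counts by direction over the whole windows follow the sequences.
Mcm6, chr1:128359706-128359825, minus strand: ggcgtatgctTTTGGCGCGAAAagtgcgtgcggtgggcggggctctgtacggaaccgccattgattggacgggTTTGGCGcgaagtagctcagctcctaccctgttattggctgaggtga
Chaf1a, chr17:56040296-56040415, plus strand: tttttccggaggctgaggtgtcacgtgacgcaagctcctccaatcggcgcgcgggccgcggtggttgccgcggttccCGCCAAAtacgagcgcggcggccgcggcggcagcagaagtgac
Fen1, chr19:10204394-10204513, minus strand: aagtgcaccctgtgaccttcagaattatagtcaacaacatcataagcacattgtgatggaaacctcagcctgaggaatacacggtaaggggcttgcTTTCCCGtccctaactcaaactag
Rpa3, chr6:8259142-8259261, minus strand: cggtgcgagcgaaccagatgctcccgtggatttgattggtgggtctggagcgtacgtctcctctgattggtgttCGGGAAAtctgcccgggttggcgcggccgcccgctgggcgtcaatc
Gins3, chr8:95633439-95633558, plus strand: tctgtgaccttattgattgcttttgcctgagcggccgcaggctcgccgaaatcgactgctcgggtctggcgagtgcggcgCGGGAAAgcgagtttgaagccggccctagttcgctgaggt
Rfc3, chr5:151651209-151651328, minus strand: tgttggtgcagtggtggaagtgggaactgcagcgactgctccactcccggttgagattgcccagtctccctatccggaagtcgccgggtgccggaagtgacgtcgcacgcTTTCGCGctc

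Mcm6 holds 3 words in this stretch, with its first at -110 from the start, where a word and the reverse of another overlap. Chaf1a, Fen1, Rpa3, Gins3 and Rfc3 hold 1 each. Of the genes that were lower in both comparisons of dTAG-13 given below, 12 of the 16 with a window held TTTGGCG or TTTCCCG within the whole window, against 3 of the 12 that were higher in both and 2 of the other 8. These classes were made from the expression values, so the counts are a description.

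The libraries held 22165538 to 32809573 counts, with 15373 to 15970 genes detected, and reads on the 45 genes made up 0.627 to 0.714% of each. Levels are given as CPM, counts scaled to library size and to composition by TMM (trimmed mean of M values). Adpgk, the induced gene, stood at 158 to 162 CPM in control and 177 to 185 with dTAG-13, and at 1315 to 1379 in the 6 libraries with doxycycline, as their labels say. The epithelial markers Epcam and Cdx2 had no read in any library, which allows at most 0.00853 CPM over the 12 libraries together, and the 8 epithelial markers summed to 0.0627 to 0.712 CPM. Of the fibroblast list, which summed to 299 to 361 CPM, Dcn (164 CPM) and Pdgfra (162 CPM) made up most, while Col1a1 was at 0.0694. Its sums were 320 to 339 CPM in control, 335 to 351 with doxycycline, 353 to 361 with dTAG-13 and 299 to 316 with the combination. Immune markers, with Cd3e at no read, summed to 1.44 to 1.67 CPM in control, 1.73 to 1.91 with doxycycline, 1.93 to 2.70 with dTAG-13 and 2.58 to 3.1 with the combination. Endothelial ones summed to 3.2 to 3.51, 3.07 to 3.62, 3.47 to 4.15 and 1.92 to 3.13 in the same order. The part of these markers in the differences below was not tested. Of the 45 genes, 17 share exon sequence with another gene, and whether the counts used strand is not given in the sources used here, so reads of such pairs cannot be told apart. The shared part was 84.1% of Fen1 (with Tmem258 and Gm10143), 70.7% of Gins2 (with Gse1), 33.6% of Chaf1a (with Ubxn6), 21.9% of Ccnd1 (with the gene annotated as LTO1) and 19.1% of Rfc2 (with Lat2).

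Together the 45 transcripts summed to 7323 to 7347 CPM in control, 6747 to 6785 with doxycycline, 6390 to 6428 with dTAG-13 and 6215 to 6260 with the combination, so the 4 groups did not overlap. Ccnd1 alone made up 2008 CPM of the control mean, 1602 of that with dTAG-13 and 1390 of the combination's, so the sums lean on this gene. In the median log2 CPM of the 45, where Ccnd1 counts as 1 gene, the last 2 groups stood in the reverse order. That median was 6.281 to 6.335 with dTAG-13 and 6.376 to 6.406 with the combination. It was 6.365 to 6.482 in control, which overlapped with doxycycline (6.409 to 6.469) and the combination. Levels between genes were compared per length, as RPKM on the merged exons of each gene. By that measure Ccnd1 was the highest of the 45 (447 RPKM, mean of 12 libraries) and Gins2 the lowest (6.34). Within roles the highest and lowest were Mcm7 (88.1) and Orc1 (8.63) in licensing, Cdc45 (42.8) and Gins2 in helicase activation, Prim1 (31.4) and Pole (11.2) among polymerases and primase, and Pcna (177) and Rfc2 (17) in the clamp group. They were Rpa3 (52.8) and Rpa2 (33.5) in single-strand binding, Rrm2 (223) and Tyms (9.91) in nucleotide supply, Ccnd1 and Ccne2 (11.65) among the regulators, and Chaf1b (36.2) and Chaf1a (18.2) in the chromatin group.

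**Figure D1:**
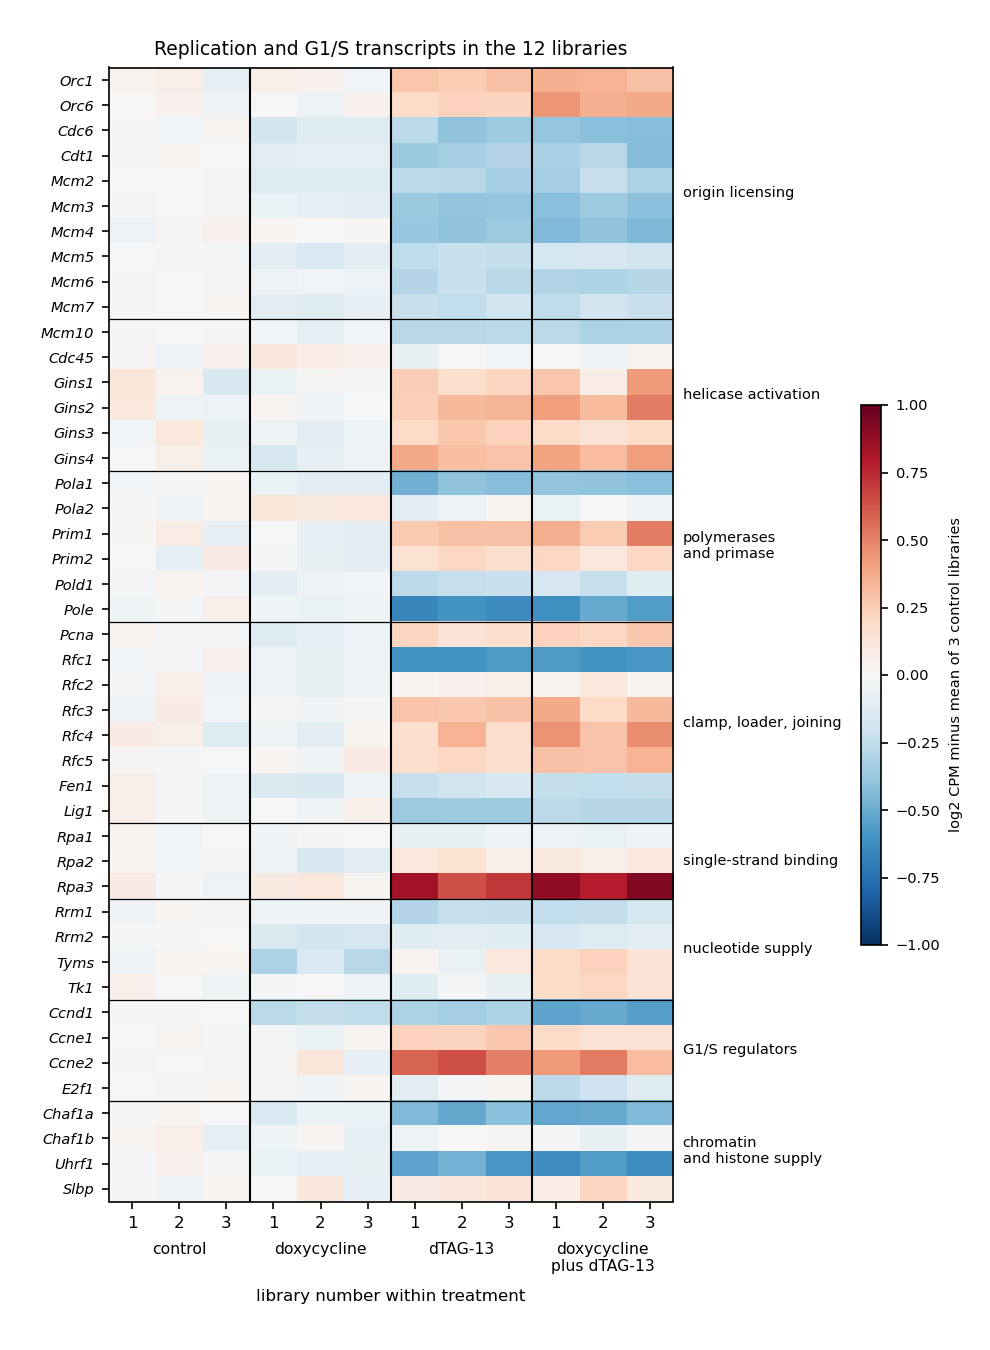
Each row is 1 of the 45 genes, grouped by role, and each column is 1 of the 12 libraries; colour is the log2 CPM minus the mean of the 3 control libraries. The columns with dTAG-13 hold the strong colours, red for genes such as Rpa3, Ccne2 and Gins4 and blue for Pole, Rfc1 and Uhrf1, and the doxycycline columns are pale outside Ccnd1 and Tyms.

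Replication genes differed in both directions after dTAG-13. Origin licensing genes such as Mcm4, the catalytic polymerase subunit Pole and the chromatin gene Uhrf1 were lower, and the helicase subunit Gins4, the clamp loader subunit Rfc5, Rpa3 and Ccne2 were higher. Against control, 16 of the 45 were higher after 3 h of dTAG-13 and 21 were lower, where called means a Benjamini-Hochberg adjusted p under 0.05 in edgeR's quasi-likelihood test over 12910 genes. Of all tested genes, 62.1% were called in this comparison, 30% higher and 32.1% lower. In cells with doxycycline, 20 were higher and 22 lower after dTAG-13 (all genes: 64.1% called, 30.7% higher and 33.4% lower). The median log2 fold change of the 45 was -0.051 and -0.038, against 0.019 and 0.0032 for all tested genes, and the first was 0.040 with library size only. No gene of the 45 reached 2-fold, and the largest change was that of Rpa3 in the second comparison, 1.74-fold. In bulk RNA, fewer cells in S phase and less of a transcript in each cell cannot be told apart.

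These 2 comparisons share no library. Of the 37 genes called in the first and the 42 called in the second, 35 were called in both, which is 94.6% and 83.3%. All 35 had the same sign, 16 higher and 19 lower. Of all tested genes, 6446 were called in both, which is 80.4% of the first and 77.9% of the second. Of these, 6203 had the same sign. Set against each other over the 45 genes, the 2 comparisons' log2 fold changes gave Pearson r = 0.948 and Spearman rho = 0.944, against 0.676 and 0.736 across all 12910 tested genes; genes are not independent replicates. CPM of the 2 groups did not overlap for 38 genes in the first comparison and 42 in the second, where 65.5% and 67.2% of all tested genes did not overlap. Slbp was called in the second comparison with groups that overlap.

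**Figure D2:**
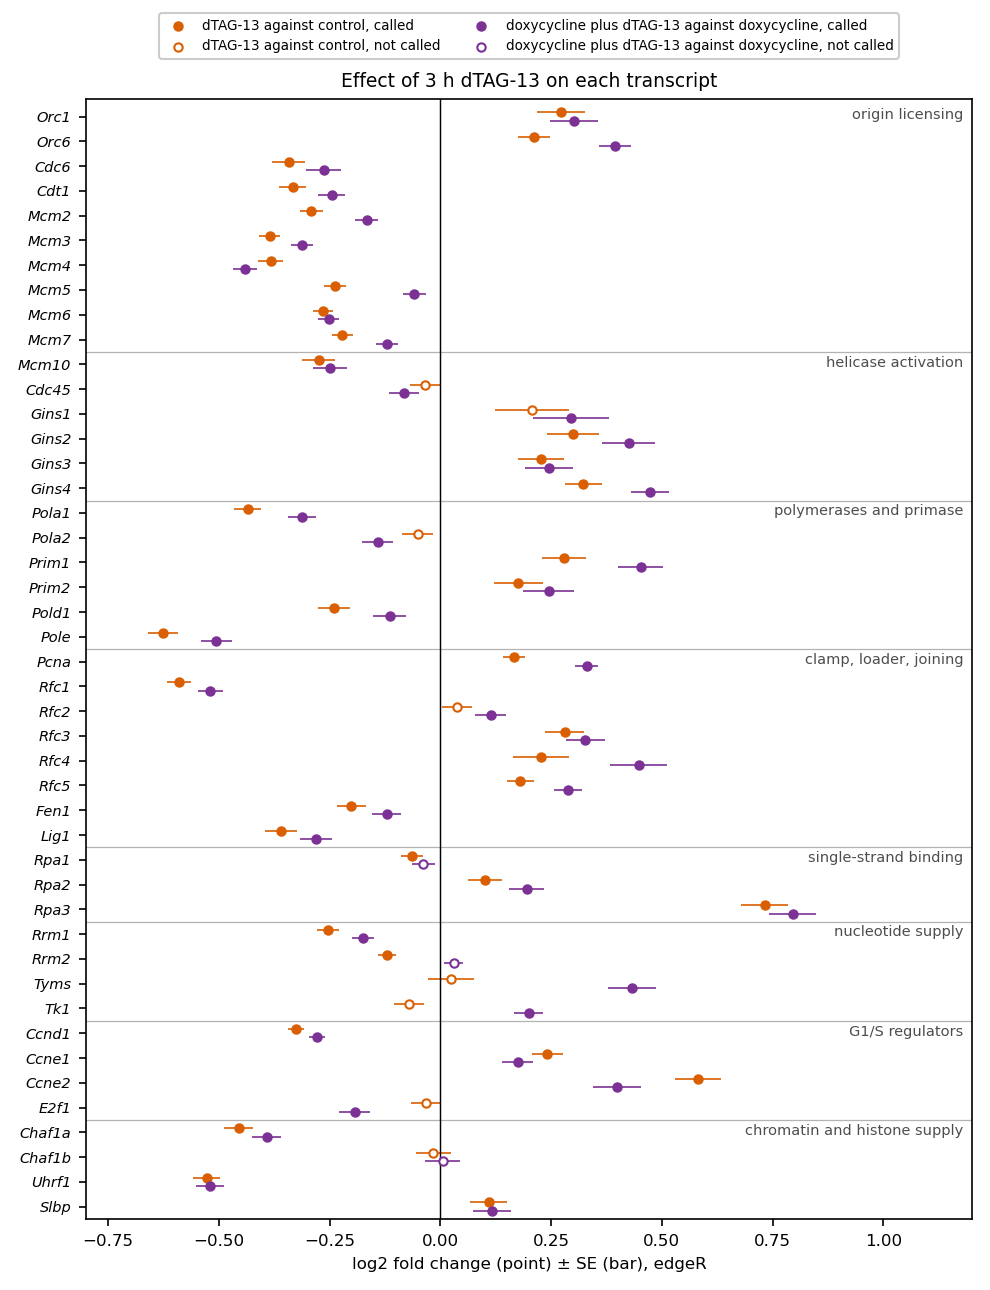
Points are edgeR log2 fold changes of the 45 genes and bars their SE, in orange for dTAG-13 against control and in purple for the combination against doxycycline; filled points were called. The 2 points of a gene lie on the same side of 0 for the 35 genes called in both, and Tyms, Tk1 and Mcm5 are among those whose points lie apart.

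Fewer of these genes were called for doxycycline against control, most of them lower: 15 of 45 were lower and 1, Pola2, was higher (all genes: 33.5% called, 18.7% lower and 14.8% higher). Their median log2 fold change was -0.052, against -0.010 for all genes, and 35 of the 45 were below 0. Libraries of the 2 groups did not overlap for 24 genes, against 43.9% of all genes. With scaling by library size only, in place of TMM, 8 were lower and 2 higher, and without doxycycline replicate 2 the count of lower genes was 8. The combination against dTAG-13 raised 5 genes and lowered 3 (all genes: 20.4% called, 10.7% higher and 9.64% lower), with a median of 0.014 against -0.00077, and 12 genes had groups that did not overlap, against 34.3% of all genes. With library size only, 3 were higher and 8 lower, and the median was -0.020. Of the 16 genes called with doxycycline alone and the 8 called with doxycycline on top of dTAG-13, Ccnd1 and Tyms were called in both, Ccnd1 lower in both and Tyms lower in the first and higher in the second.

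Whether dTAG-13 acted differently in the 2 settings was tested by the interaction, its effect in cells with doxycycline less its effect in cells without. It was positive and called for 9 genes and negative and called for 1, E2f1 (all genes: 22.9% called, 13.2% positive and 9.64% negative), and 39 of 45 values were above 0. The median was 0.078 against 0.0053 for all genes. With library size only, 4 were positive and 5 negative. After the correction for transcript length and GC content described below, 17 were positive and 1 negative (all genes: 15.5% and 6.79%).

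In origin licensing, 8 of 10 genes were lower with dTAG-13 in both comparisons and the other 2 were higher. Of all 12910 tested genes, 3436 were lower in both and 2767 higher in both. With dTAG-13, all 6 subunits of the MCM2-7 helicase were lower in both comparisons, as were Cdc6 and Cdt1, which load it, while Orc1 and Orc6 of the origin recognition complex were higher; with transcript length and GC content corrected for, as described below, Mcm2, Mcm5, Cdc6 and Orc6 were no longer called against doxycycline, and Orc6 not against control. Mcm4 stood at 167, 175 and 179 CPM in control, 176, 173 and 175 with doxycycline, 133, 131 and 135 with dTAG-13 and 128, 131 and 127 with the combination. Every library with dTAG-13 was below every library without it. Its log2 fold change was -0.38 (SE 0.028, adjusted p 1.36e-15) against control and -0.44 (SE 0.028, adjusted p 2.53e-17) against doxycycline. The log2 fold changes of the other subunits against control ran from -0.38 (Mcm3) to -0.22 (Mcm7). Against doxycycline they ran from -0.31 (Mcm3) to -0.058 (Mcm5), and the call of Mcm5 was lost under both other scalings, DESeq2, both other filters, a fit of the compared groups only and the replicate block, and without any 1 of 3 libraries; the length and GC correction turned it to 0.027, not called.

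Mcm5, at chr8:75109468-75128439 on GRCm38, stood at 209, 209.8 and 204 CPM in control, 192, 187 and 193 with doxycycline, 174, 178 and 176 with dTAG-13 and 184, 185 and 181 with the combination. The control libraries were the highest and those with dTAG-13 the lowest, with the combination in between and below doxycycline, and no 2 groups overlapped. It changed with dTAG-13 by -0.24 (SE 0.025, adjusted p 5.99e-11) on the log2 scale without doxycycline and by -0.058 (SE 0.025, adjusted p 0.0406) with it, and the interaction was 0.18 (SE 0.035, adjusted p 2.05e-04). Mcm2 and Mcm7 had smaller interactions of the same sign, 0.12 (SE 0.037, adjusted p 0.0113) and 0.10 (SE 0.034, adjusted p 0.0285), both not called with library size only. Mcm7 also lost its interaction call without any 1 of 6 libraries, which were 2 each of the dTAG-13 and doxycycline groups and 1 each of control and the combination. With doxycycline alone, Mcm2 (-0.13), Mcm5 (-0.12), Mcm7 (-0.10), Mcm3 (-0.085), Cdc6 (-0.15) and Cdt1 (-0.10) were lower, while Mcm4 (0.0099) and Mcm6 (-0.049) were not called; Mcm3 and Cdt1 were not called with library size only or without doxycycline replicate 2.

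Orc6, the smallest subunit of the origin recognition complex, went the other way. It stood at 65.4, 67.6 and 64.2 CPM in control, 65.7, 63.5 and 67.9 with doxycycline, 74.6, 77.2 and 76.8 with dTAG-13 and 89.3, 84.2 and 85.6 with the combination. The 6 libraries without dTAG-13 overlapped, those with dTAG-13 were above them, and those of the combination were above those with dTAG-13 alone. The log2 fold change was 0.21 (SE 0.036, adjusted p 2.56e-06) against control, 0.39 (SE 0.036, adjusted p 1.74e-12) against doxycycline and 0.18 (SE 0.036, adjusted p 2.12e-04) for the combination against dTAG-13, with an interaction of 0.18 (SE 0.051, adjusted p 0.00828) that was not called with library size only. After the length and GC correction the first was -0.067 and the second 0.067, and neither was called. Orc1, whose product binds ATP in the complex, rose from 23.2 ± 1.41 to 28.1 ± 0.327 CPM with dTAG-13 and from 23.6 ± 0.766 to 29.2 ± 0.633 CPM with the combination (mean ± SD, n = 3). It was called in both, at 0.27 and 0.30, and stayed called after the correction. Cdc6 fell from 77.9 ± 1.37 to 61.4 ± 3.15 CPM and Cdt1 from 147 ± 1.83 to 116 ± 3.04 CPM with dTAG-13, log2 fold changes of -0.34 and -0.33.

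Helicase activation split within 1 complex and its partners. Of the GINS subunits, which with Cdc45 complete the active helicase, Gins2, Gins3 and Gins4 were higher with dTAG-13 in both comparisons, and Mcm10, which helps to start it, was lower. Gins4 stood at 50.1, 52.0 and 47.8 CPM in control, 44.8, 47.2 and 48.2 with doxycycline, 64.9, 61.6 and 60.9 with dTAG-13 and 65.8, 61.9 and 66.8 with the combination. All 6 libraries with dTAG-13 were above the 6 without. Its log2 fold change was 0.32 (SE 0.042, adjusted p 1.06e-08) against control and 0.47 (SE 0.043, adjusted p 8.95e-13) against doxycycline, and 0.14 and 0.22 after the length and GC correction, both called. Gins2 (0.30 and 0.42) and Gins3 (0.23 and 0.25) were called higher in both, though most of the length of Gins2 is shared with Gse1. Gins1 was called against doxycycline (0.30, adjusted p 0.0105) and not against control (0.21, adjusted p 0.0529). The first of these calls was lost without doxycycline replicate 1, and after the length and GC correction its value was -0.092. Mcm10 changed by -0.27 and -0.25 on the log2 scale, and after the correction by -0.12, called, and -0.037, not called. Cdc45, at 91.0 ± 3.15, 96.0 ± 2.33, 88.8 ± 2.23 and 90.6 ± 2.09 CPM in control, doxycycline, dTAG-13 and the combination, was called for the combination against doxycycline (-0.082, adjusted p 0.0312), and that call was lost under both other scalings and DESeq2. No gene of helicase activation was called with doxycycline alone, with the combination against dTAG-13, or in the interaction; at an unadjusted p under 0.05 there were 2, 1 and 1.

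Polymerases and primase divided by subunit. DNA polymerase alpha-primase has a catalytic subunit (Pola1), an accessory subunit (Pola2) and the primase subunits Prim1 and Prim2; with dTAG-13, Pola1 was lower and both primase subunits were higher, the latter not against control once length and GC content were corrected for. Pole, the catalytic subunit of the leading-strand polymerase epsilon, had the largest fall of the 45 against control. It stood at 98.5, 100.4 and 105 CPM in control, 98.3, 96.9 and 98.4 with doxycycline, 64.4, 67.1 and 65.4 with dTAG-13 and 66.3, 71.5 and 68.9 with the combination. The 6 libraries with dTAG-13 lay between 64.4 and 71.5 CPM and the other 6 between 96.9 and 105. On the log2 scale it changed by -0.63 (SE 0.035, adjusted p 3.27e-19) against control and -0.51 (SE 0.035, adjusted p 4.13e-16) against doxycycline, and -0.31 and -0.11 after the length and GC correction, both still called.

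Prim1, the catalytic primase subunit, stood at 44.9, 46.9 and 42.0 CPM in control, 44.4, 42.0 and 41.2 with doxycycline, 53.5, 54.5 and 54.5 with dTAG-13 and 57.4, 53.2 and 63.6 with the combination. All 6 libraries with dTAG-13 were above the other 6. Its log2 fold change was 0.28 (SE 0.050, adjusted p 1.16e-05) against control and 0.45 (SE 0.051, adjusted p 1.81e-09) against doxycycline, and after the length and GC correction -0.017, not called, and 0.12, called. Prim2 was called higher in both (0.18 and 0.24), and in neither after that correction (0.028 and 0.090). Pola1 fell from 113 ± 2.04 to 83.9 ± 2.36 CPM (-0.43) and from 106 ± 1.70 to 85.5 ± 0.697 CPM (-0.31). Pold1, the catalytic subunit of polymerase delta, changed by -0.24 and -0.11; after the correction these were -0.053, not called, and 0.11, called higher. Pola2 was the 1 gene of the 45 that doxycycline raised.

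Pola2 stood at 80.0, 77.8 and 80.8 CPM in control, 86.3, 84.9 and 85.8 with doxycycline, 73.6, 76.4 and 80.5 with dTAG-13 and 76.2, 79.3 and 77.6 with the combination. The doxycycline libraries were above all others. The log2 fold change was 0.11 (SE 0.035, adjusted p 0.0143) for doxycycline and -0.14 (SE 0.035, adjusted p 5.74e-04) for the combination against doxycycline, and the first was not called without control replicate 2. Pola1 was lower with doxycycline (-0.10, adjusted p 0.0132), a call lost with library size only and without control replicate 2 or doxycycline replicate 2. Its interaction, 0.12 (SE 0.044, adjusted p 0.0398), lost its call without any 1 of 8 libraries, with library size only, and with the replicate number as a block.

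In the clamp group, Pcna, Rfc3, Rfc4 and Rfc5 were higher with dTAG-13 in both comparisons and Rfc1 was lower, but once length and GC content were corrected for, Pcna was called lower against control and Rfc4 had a value below 0 there that was not called. Rfc1 is the large subunit of the loader, and Rfc2 to Rfc5 are the small ones. Rfc1 stood at 154, 155 and 162 CPM in control, 150.3, 149 and 151 with doxycycline, 104, 103 and 106 with dTAG-13 and 106, 104 and 105 with the combination. The 6 libraries with dTAG-13 lay between 103 and 106 CPM and the others at 149 or above. Its log2 fold change was -0.59 (SE 0.028, adjusted p 1.45e-21) against control and -0.52 (SE 0.028, adjusted p 1.72e-19) against doxycycline, the largest fall of the second comparison, and -0.50 and -0.37 after the length and GC correction.

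Rfc3 (0.28 and 0.33), Rfc4 (0.23 and 0.45) and Rfc5 (0.18 and 0.29) were called higher with dTAG-13 in both comparisons, and Rfc2 in the second (0.11; first 0.037). After the length and GC correction Rfc5 and Rfc2 were called higher in both, Rfc3 was not called (0.053 and 0.032), and Rfc4 was at -0.14 and 0.021, also not called. Rfc5 was also higher with the combination than with dTAG-13, at 0.13 (SE 0.031, adjusted p 0.00196). Fen1, which trims flaps between Okazaki fragments, was lower with dTAG-13 (-0.20 and -0.12) and with doxycycline (-0.12), the last not called without doxycycline replicate 2, and shares most of its length with other genes. Lig1, the ligase that seals the fragments, fell from 85.5 ± 3.51 to 66.7 ± 0.235 CPM (-0.36) and from 85.6 ± 2.69 to 70.5 ± 0.664 CPM (-0.28).

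Pcna, the sliding clamp, at chr2:132249286-132253180, stood at 260.3, 249.7 and 251 CPM in control, 232, 237 and 243 with doxycycline, 294, 278 and 283 with dTAG-13 and 298, 292 and 306 with the combination. The doxycycline libraries were the lowest, control next, and the 6 with dTAG-13 above both, where the 2 groups overlapped. Doxycycline alone changed it by -0.095 (SE 0.026, adjusted p 0.00375), a call lost with library size only and without doxycycline replicate 1. dTAG-13 changed it by 0.17 (SE 0.026, adjusted p 4.35e-07) without doxycycline and by 0.33 (SE 0.026, adjusted p 1.69e-14) with it, and the interaction was 0.16 (SE 0.037, adjusted p 8.64e-04), not called with library size only. The length and GC correction turned the first of the dTAG-13 values to -0.11, called lower, and brought the second to 0.014.

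The 3 subunits of RPA, which coats single-stranded DNA, moved unequally. Rpa3, the smallest subunit and the shortest transcript of the 45 (670 bases), had the largest rise of all. It stood at 27.0, 25.2 and 24.5 CPM in control, 27.1, 27.5 and 26.0 with doxycycline, 45.7, 40.0 and 41.7 with dTAG-13 and 47.3, 44.1 and 48.5 with the combination. All 6 libraries with dTAG-13 were at 40.0 CPM or above and all 6 without it at 27.5 or below. The log2 fold change was 0.73 (SE 0.053, adjusted p 1.54e-15) against control and 0.80 (SE 0.053, adjusted p 1.09e-16) against doxycycline. After the length and GC correction these were 0.16, still called, and 0.11, not called. The combination against dTAG-13 gave 0.14 (SE 0.050, adjusted p 0.0491) with groups that overlap, a call lost under library size only, DESeq2 and the length and GC correction, and without any 1 of 5 libraries. Rpa2 was called higher with dTAG-13 in both comparisons (0.10 and 0.20) and lower with doxycycline (-0.11), and Rpa1, the large subunit, was at -0.064 (called) and -0.038 (not called). The length and GC correction gave Rpa2 -0.0069 against control and 0.057 against doxycycline, neither called, and turned Rpa1 to 0.11 and 0.20, and library size only turned Rpa1 against control to 0.028. Rpa2 lost its doxycycline call without any 1 of 7 libraries and its dTAG-13 call against control without any 1 of 3.

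Nucleotide supply held the 2 largest interactions, those of Tyms and Tk1. Ribonucleotide reductase makes deoxyribonucleotides from a large (Rrm1) and a small (Rrm2) subunit, Tyms makes thymidylate and Tk1 salvages thymidine. Tyms stood at 30.5, 31.8 and 31.8 CPM in control, 25.3, 28.2 and 25.8 with doxycycline, 32.0, 30.0 and 33.7 with dTAG-13 and 35.8, 36.8 and 34.5 with the combination. Doxycycline alone was the lowest group and the combination the highest, and control and dTAG-13 overlapped. Doxycycline changed it by -0.25 (SE 0.053, adjusted p 3.20e-04), dTAG-13 by 0.024 (SE 0.052, adjusted p 0.706) without doxycycline and 0.43 (SE 0.054, adjusted p 3.19e-09) with it. The interaction, 0.41 (SE 0.075, adjusted p 7.07e-05), was the largest of the 45 and stayed called under every alternative run. The combination against dTAG-13, 0.16 (SE 0.052, adjusted p 0.0223), was not called with library size only or without 1 of 3 libraries.

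Tk1 stood at 103, 100.1 and 96.5 CPM in control, 98.4, 99.8 and 96.0 with doxycycline, 91.6, 99.3 and 94.9 with dTAG-13 and 113, 115 and 109.7 with the combination. The combination was above the other 3 groups, which overlapped. Neither agent alone gave a called change (-0.028 and -0.070), while the combination gave 0.20 (SE 0.033, adjusted p 1.71e-06) against doxycycline and 0.24 (SE 0.033, adjusted p 4.14e-07) against dTAG-13, with an interaction of 0.27 (SE 0.047, adjusted p 3.70e-05). With dTAG-13 alone it was called lower without any 1 of 4 libraries. After the length and GC correction the value with dTAG-13 alone was -0.16 and called lower, that against doxycycline was 0.035 and not called, and the interaction was 0.20 and called.

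Rrm2 stood at 522, 531 and 528 CPM in control, 477, 462 and 469 with doxycycline, 484, 486 and 484 with dTAG-13 and 469.9, 480.1 and 488 with the combination. Control was above the other 3 groups. Doxycycline changed it by -0.17 (SE 0.021, adjusted p 3.30e-08) and dTAG-13 by -0.12 (SE 0.021, adjusted p 3.65e-06), the latter not called with library size only, and dTAG-13 on top of doxycycline by 0.030 (SE 0.021, adjusted p 0.218). Library size only gave the last as 0.051, called higher. After the length and GC correction the value was -0.29 against control and -0.13 against doxycycline, both called lower. Its interaction was 0.15 (SE 0.030, adjusted p 2.01e-04). Rrm1 fell with dTAG-13 from 279 ± 5.89 to 234 ± 5.35 CPM (-0.25) and from 270.2 ± 1.04 to 239 ± 5.92 CPM (-0.18), without a called interaction (0.078).

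Among the regulators, cyclin D1 fell with each agent and both E cyclins rose with dTAG-13. Ccnd1, at chr7:144929931-144939831, encodes cyclin D1, the activator of Cdk4 and Cdk6 in G1. It stood at 2024, 1988 and 2010 CPM in control, 1669, 1705 and 1685 with doxycycline, 1614, 1577 and 1617 with dTAG-13 and 1391, 1412 and 1367 with the combination. No 2 groups overlapped, with control the highest and the combination the lowest. The log2 fold change was -0.25 (SE 0.018, adjusted p 5.33e-15) for doxycycline, -0.33 (SE 0.018, adjusted p 2.00e-19) for dTAG-13, -0.28 (SE 0.018, adjusted p 2.96e-17) for dTAG-13 on top of doxycycline and -0.20 (SE 0.018, adjusted p 4.03e-12) for doxycycline on top of dTAG-13. It was called in these 4 comparisons under every alternative run, and the interaction (0.047, adjusted p 0.184) was not called except after the length and GC correction (0.078).

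Ccne2, which encodes cyclin E2, a partner of Cdk2 at S phase entry, stood at 30.6, 30.6 and 31.1 CPM in control, 30.9, 33.5 and 29.1 with doxycycline, 46.1, 48.1 and 43.8 with dTAG-13 and 41.4, 44.1 and 38.0 with the combination. All 6 libraries with dTAG-13 were above the other 6, and those with dTAG-13 alone overlapped with the combination. Its log2 fold change was 0.58 (SE 0.053, adjusted p 1.88e-12) against control and 0.40 (SE 0.054, adjusted p 3.25e-08) against doxycycline, and 0.24 and 0.13 after the length and GC correction, both called. The combination against dTAG-13 gave -0.16 (SE 0.052, adjusted p 0.0202), a call lost with DESeq2 and without any 1 of 3 libraries. Ccne1, for cyclin E1, rose from 66.8 ± 1.09 to 79.0 ± 1.53 CPM (0.24) and from 66.0 ± 2.14 to 74.6 ± 1.3 CPM (0.17).

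E2f1, an activator of many genes named here, was lowest in the combination. It stood at 108, 107 and 109 CPM in control, 109, 106 and 109.7 with doxycycline, 100.4, 107 and 109.7 with dTAG-13 and 90.2, 93.5 and 99.4 with the combination. The combination was below all other libraries, which overlapped. Neither agent alone gave a called change (0.0022 and -0.032). The combination gave -0.19 (SE 0.035, adjusted p 5.58e-06) against doxycycline and -0.16 (SE 0.035, adjusted p 6.62e-04) against dTAG-13, and the interaction, -0.16 (SE 0.048, adjusted p 0.0126), was not called without replicate 1 of the combination or replicate 3 of dTAG-13. With length and GC corrected for, the value against doxycycline was -0.072 and not called.

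**Figure D3:**
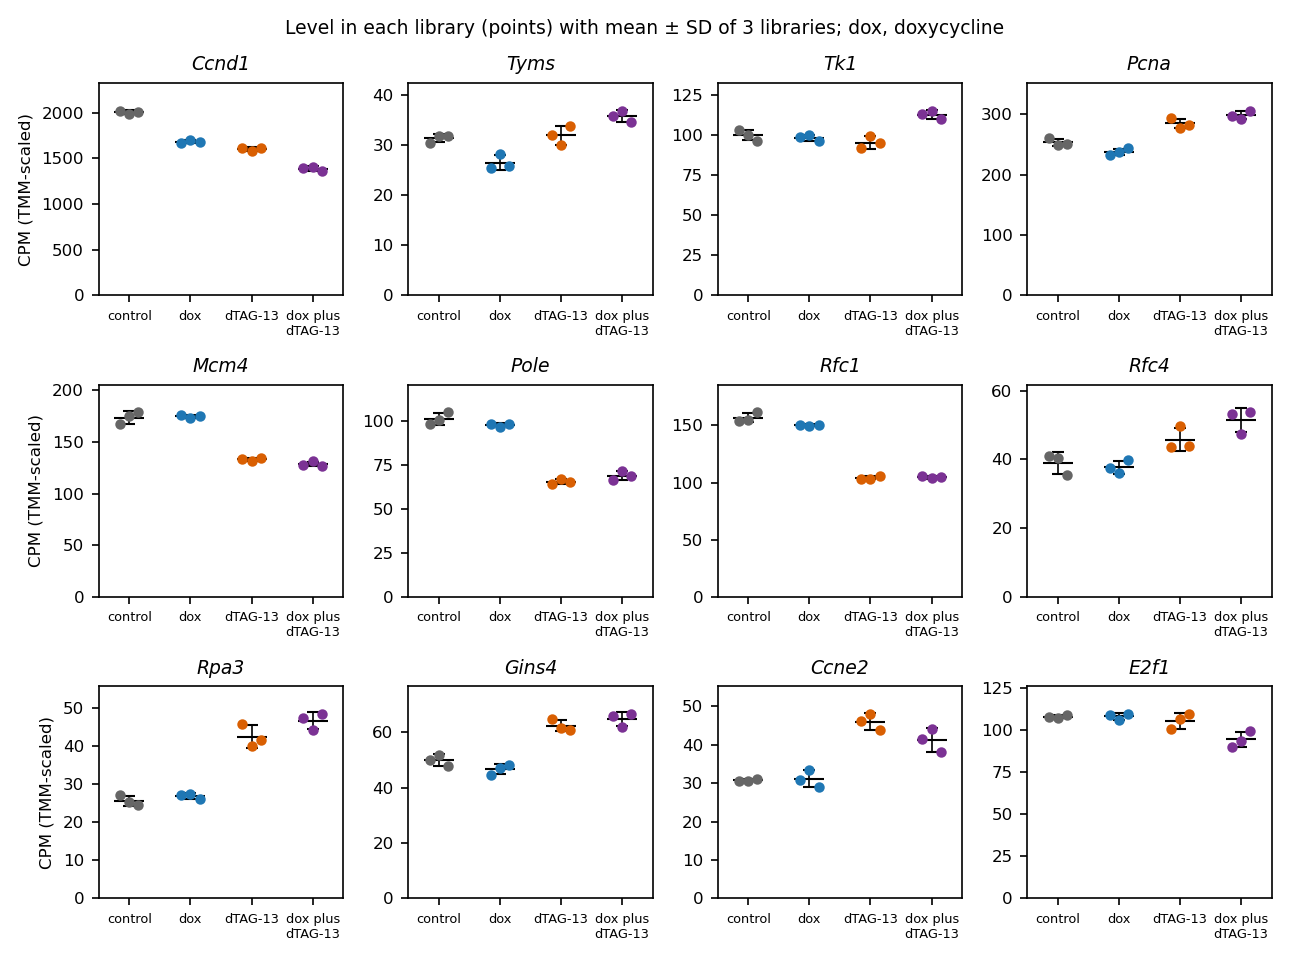
Each panel shows 1 gene; points are CPM of the 3 libraries of a group and black marks their mean ± SD, on axes that start at 0. Ccnd1 falls in steps from control to the combination, Tyms is lowest with doxycycline and highest with the combination, Tk1 is high and E2f1 low in the combination alone, and Pcna and the genes from Mcm4 to Ccne2 separate the 6 libraries with dTAG-13 from the 6 without.

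Chromatin and histone supply gave 2 genes lower, 1 with small rises and 1 without any call. Uhrf1 recognises hemimethylated DNA behind the fork and brings in the maintenance methyltransferase. It stood at 143, 149 and 142 CPM in control, 138, 135 and 137 with doxycycline, 100.2, 104 and 96.7 with dTAG-13 and 93.8, 98.3 and 94.1 with the combination. The 6 libraries with dTAG-13 were below the other 6. In log2 terms it changed by -0.53 (SE 0.030, adjusted p 1.52e-18) against control and -0.52 (SE 0.031, adjusted p 4.92e-18) against doxycycline, and -0.42 and -0.39 after the length and GC correction. Doxycycline changed it by -0.082, a call lost without any 1 of 5 libraries. Chaf1a, the large subunit of the histone chaperone CAF-1, fell from 119 ± 1.19 to 86.8 ± 3.12 CPM (-0.45) and from 112 ± 3.78 to 84.9 ± 2.50 CPM (-0.39), after the correction -0.15, called, and -0.030, not called. Chaf1b, of the same chaperone, stood at 71.9 ± 3.96, 70.0 ± 2.55, 71.2 ± 1.54 and 70.3 ± 1.67 CPM in control, doxycycline, dTAG-13 and the combination, and had no call in any of the 5 contrasts. Slbp, which binds the stem-loop of histone mRNA, was called with dTAG-13 at 0.11 and 0.12; these calls were lost without any 1 of 4 libraries and any 1 of 3. The length and GC correction turned both, to -0.066 and -0.068, not called.

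Of 67 other genes of the same pathways, 66 were tested. With dTAG-13, 34 were higher and 23 lower against control (all genes: 30% and 32.1%). Against doxycycline, 28 were higher and 26 lower (all genes: 30.7% and 33.4%). With doxycycline, 13 were higher and 13 lower (all genes: 14.8% and 18.7%). The combination against dTAG-13 gave 11 and 5 (all genes: 10.7% and 9.64%), and the interaction 11 and 9 (13.2% and 9.64%). Dnmt1, the maintenance DNA methyltransferase that Uhrf1 recruits, fell furthest of these with dTAG-13, from 363 ± 3.98 to 203 ± 3.38 CPM (-0.83) and from 351 ± 0.660 to 209 ± 7.53 CPM (-0.75). Ticrr (-0.73 and -0.58), a helicase activation factor, and E2f8 (-0.72 and -0.59), an E2F repressor, were next in both. The highest were Pold4 (0.60), Recql4 (0.49) and Orc4 (0.44) against control, and Dctpp1 (0.67), Recql4 (0.65) and Gmnn (0.53), which encodes the Cdt1 inhibitor geminin, against doxycycline. Values of these 67 genes and of the G2/M list below are without the correction for transcript length and GC content. Dnmt1 (5870 bases) and Ticrr (7199) have long transcripts and Pold4 (913), Dctpp1 (676) and Gmnn (1127) short ones. Recql4 (3984) and Orc4 (4066) rose with transcripts longer than the median of tested genes (3121).

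With doxycycline alone, Cdkn2d (0.48), an inhibitor of Cdk4 and Cdk6, Samhd1 (0.41), which breaks down deoxyribonucleotides, and Rb1 (0.35), the retinoblastoma gene, were the highest of these genes, and Dctpp1 (-0.27), Shmt1 (-0.26) and Orc2 (-0.25) the lowest. Cdkn1a, the Cdk inhibitor p21, had the lowest interaction. It stood at 73.5, 74.8 and 75.4 CPM in control, 70.9, 73.5 and 73.9 with doxycycline, 88.0, 83.2 and 87.1 with dTAG-13 and 57.0, 56.5 and 58.0 with the combination. The combination was the lowest group and dTAG-13 alone the highest. dTAG-13 changed it by 0.21 (SE 0.034, adjusted p 1.50e-06) without doxycycline and by -0.35 (SE 0.036, adjusted p 5.25e-11) with it, an interaction of -0.56 (SE 0.050, adjusted p 3.15e-11), and the combination against dTAG-13 gave -0.59. Rbl2 (-0.29) and Rb1 (-0.28) followed at the low end of the interaction, with Dctpp1 (0.47), Shmt1 (0.31) and Orc2 (0.23) at the high end. In the combination against dTAG-13, Samhd1 (0.34), Recql4 (0.26) and Cdkn2d (0.25) were the highest of those called, and Dck (-0.18) and Ccnd2 (-0.13) the lowest of those called after Cdkn1a.

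Of the kinases that these cyclins activate, Cdk2 was called against control with dTAG-13 (0.14) and Cdk4 with dTAG-13 in both comparisons (0.12 and 0.24), the latter with an interaction of 0.13 (adjusted p 0.00609). Cdk6, the other partner of cyclin D1, named here after its values were seen, was lower with dTAG-13 in both (-0.31, adjusted p 3.94e-07, and -0.45, adjusted p 1.17e-10). Ccna2, for cyclin A2 of S phase and G2, was lower with dTAG-13 (-0.29 and -0.24). Of the 28 genes of a G2/M list, 10 were higher and 5 lower with doxycycline (median 0.0052, all genes: 14.8% and 18.7%). With dTAG-13, 21 were lower and 4 higher against control (median -0.22, all genes: 32.1% and 30%). Against doxycycline, 16 were lower and 4 higher (median -0.082, all genes: 33.4% and 30.7%). The combination against dTAG-13 raised 23 of 28 and lowered none (median 0.14, all genes: 10.7% and 9.64%). At an unadjusted p under 0.05, 24 were higher or lower there. The interaction was positive and called for 17 and negative for 1 (all genes: 13.2% and 9.64%). Summed CPM of that list was 5129 to 5256 in control, 5312 to 5382 with doxycycline, 4235 to 4323 with dTAG-13 and 4730 to 4756 with the combination. The transcript of Cdk6 is 11525 bases long, and no value in this paragraph is corrected for length and GC content. How far a shift in cell cycle phase takes part in the differences of the replication genes was not tested.

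Transcript length moved with the dTAG-13 differences across all genes and among these 45. The 16 genes higher in both comparisons had transcripts of 670 to 3900 bases (median 1859.5), and the 19 lower in both had 2189 to 7163 (median 3589). Spearman's rho between length and log2 fold change across the 45 was -0.678 against control and -0.690 against doxycycline. It was -0.388 and -0.533 across the 10540 genes within the same range of lengths, and -0.444 and -0.584 across all 11740 tested genes with a known length. The 15 shortest, the 15 middle and the 15 longest of the 45 had median log2 fold changes of 0.21, -0.12 and -0.33 against control and of 0.30, -0.12 and -0.26 against doxycycline. For doxycycline against control rho was -0.190 across the 45 and 0.110 across all genes. Genes are not independent replicates, so these are descriptions.

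**Figure D4:**
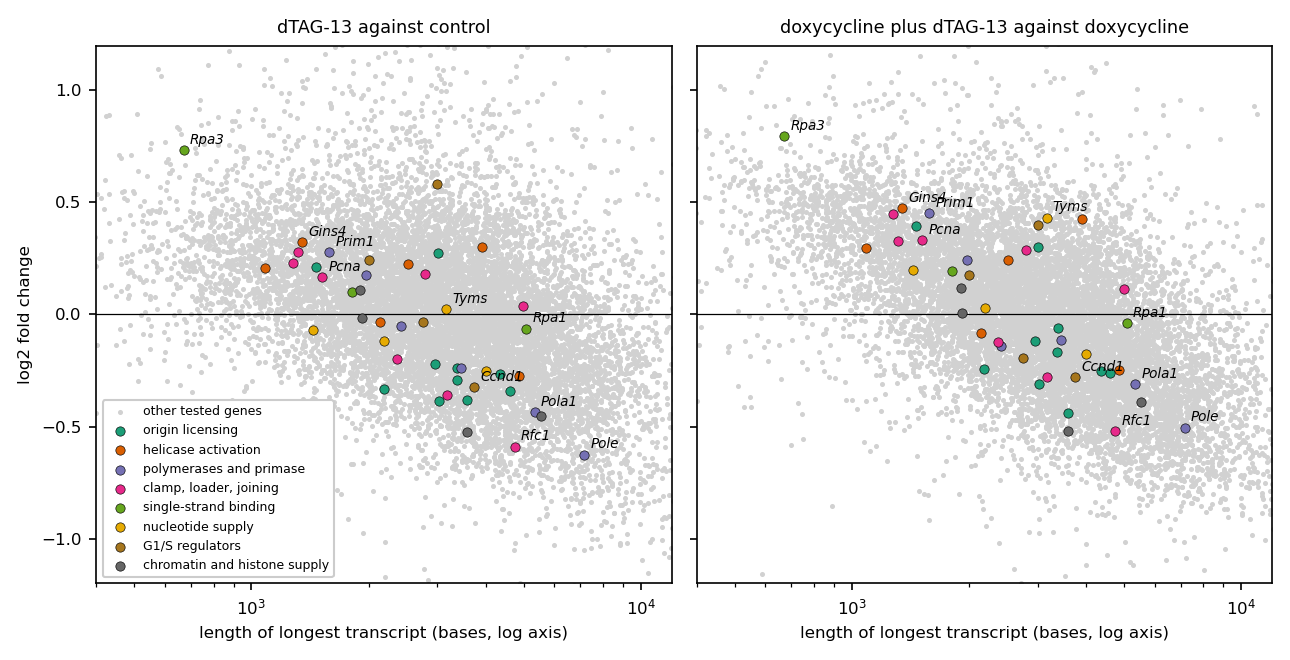
Each point is a gene, with the length of its longest transcript on a log axis and its log2 fold change; grey points are other tested genes and coloured points the 45 by role. Rpa3, the shortest of the 45, has the highest value in both panels, and Pole, the longest at 7163 bases, is among the lowest; some grey points lie beyond the axes.

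When the trend of each library with transcript length and GC content was removed, dTAG-13 against control left 10 of the 45 higher and 22 lower, with a median of -0.11 (all genes: 23.5% higher, 30.5% lower, median -0.0043). Of the 29 genes called before and after, 27 kept their sign; Pcna and Rpa1 turned. Against doxycycline, 12 were higher and 16 lower (all genes: 25.2% and 26.9%), 25 of 26 kept their sign and Pold1 turned. The falls of Pole, Rfc1, Uhrf1, Mcm3, Mcm4, Mcm6, Mcm7, Cdt1, Pola1, Lig1, Rrm1, Fen1 and Ccnd1 and the rises of Orc1, Gins2, Gins3, Gins4, Rfc5, Ccne1 and Ccne2 were called in both comparisons with and without the correction. For genes called before it, some values not yet given were moved by over 1.5 times. Against control they were Cdc6 (-0.20), Mcm2 (-0.17) and Gins3 (0.14). Against doxycycline they were Cdc6 (-0.069), Mcm2 (-0.027), Mcm6 (-0.12), Mcm7 (-0.055), Cdc45 (-0.18), Rfc2 (0.36), Ccnd1 (-0.17) and Ccne1 (0.090). Of genes not called before it against control, Cdc45 moved from -0.035 to -0.14 and Rfc2 from 0.037 to 0.23, both then called. Gins1 (-0.094), E2f1 (0.067), Chaf1b (-0.075) and Tyms (-0.0035) there, and Chaf1b against doxycycline (-0.080), also moved and were not called after the correction. Doxycycline against control gave 1 higher and 20 lower after it (all genes: 12.2% and 23.3%), and all 16 calls made before were made again with the same sign. The trend was fitted over all tested genes with a known length, and the 45 kept part of it. After the correction, Spearman's rho between length and log2 fold change across the 45 was -0.343 for dTAG-13 against control. It was -0.213 for the combination against doxycycline (all genes: -0.019 and -0.039). The calls of the 45 after the correction are therefore not free of transcript length. What gave rise to the length trend was not tested.

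**Figure D5:**
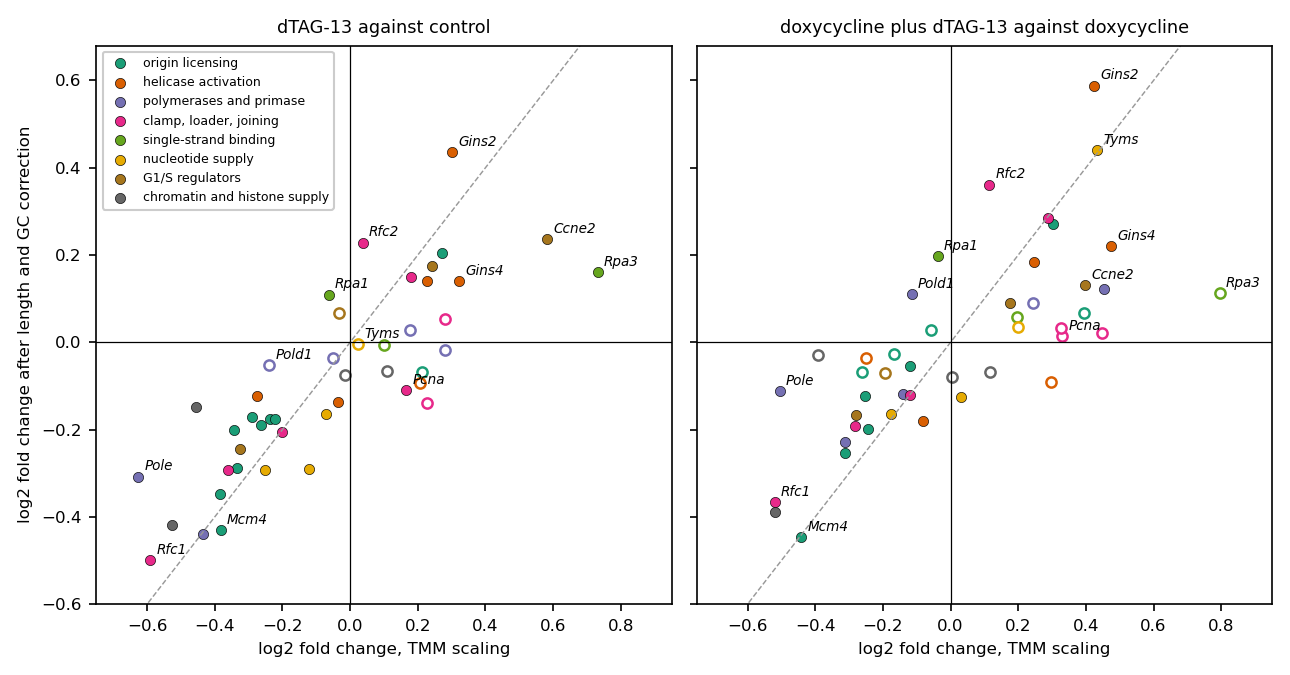
The log2 fold change of each of the 45 genes with TMM scaling (x axis) is set against its value after the correction for transcript length and GC content (y axis); filled points were called after the correction and the dashed line marks equal values. In both panels Rpa3 drops from the far right to 0.16 and 0.11, Pole, Rfc1 and Mcm4 stay below 0, and Gins2 lies above the line.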

How the data were processed

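RNA was sequenced from 12 libraries, 3 per treatment. Values are raw read counts per gene as the authors deposited them. The counts were made with featureCounts on mm10, with bcl2fastq 2.17 for the base calls, per the submitters' processing notes, and from Subread alignments, per the file headers; the sources used here do not give the annotation, the strand setting or the treatment of multiply mapped reads. Gene IDs were matched to symbols through RefSeq (25275 of 27179) and GENCODE (17); the rest held 2.10% of reads. Gene positions are from RefSeq, and lengths and exon overlaps from GENCODE, on GRCm38.

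Genes were filtered by filterByExpr (12910 kept), scaled by TMM (factors 0.965 to 1.03) and tested with edgeR 4.0.16 in R 4.3.3 (robust quasi-likelihood, 1 model over all 12 libraries, Benjamini-Hochberg adjustment over 12910 genes, threshold 0.05). The test was checked on simulated data. Alternatives were RLE and library-size scaling, DESeq2 1.42.0, other filters, fits of the compared groups only, a replicate block and each library left out. A further alternative corrected each library's trend with length and GC content. That trend was fitted by linear regression on splines of 5 degrees of freedom and entered the edgeR model as an offset. P-values measure only the spread between libraries of a culture. The genes and lists were chosen with earlier results of these data known. Values of every library are given for the 3 highest and 3 lowest called genes of a comparison and the 6 largest called interactions; other pathway genes are named by the 3 highest and 3 lowest, with Cdk2, Cdk4, Cdkn1a and Ccna2; 1 further gene that the rule names is not reported here. Libraries held 22165538 to 32809573 counts.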

Additional observations from a re-analysis of the deposited data

Results flagged for a closer look

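Of the 45 genes, 10 had a called interaction by edgeR's test, which is near the share of all tested genes, 22.9%. By direction, 20% of the 45 were positive and 2.22% negative, against 13.2% and 9.64% of all genes. With library size only, 4 were positive and 5 negative. Each treatment was 1 culture, so a different response to dTAG-13 and a difference between cultures cannot be told apart. Positive values, given as log2 differences between the effects, were 0.41 for Tyms, 0.27 for Tk1, 0.18 for Orc6, 0.18 for Mcm5, 0.16 for Pcna, 0.15 for Rrm2, 0.12 for Mcm2, 0.12 for Pola1 and 0.10 for Mcm7. E2f1 had -0.16. Tyms, Tk1, Mcm5 and Rrm2 were called under every alternative run.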

How the results depend on the processing

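Scaling by library size only moved the median log2 fold change of all genes by 0.036 for doxycycline against control, 0.092 for dTAG-13 against control, 0.020 for the combination against doxycycline, -0.035 for the combination against dTAG-13 and -0.071 for the interaction. All genes then split into 2546 higher and 1609 lower for doxycycline against control, 5255 and 3115 for dTAG-13 against control, 926 and 2131 for the combination against dTAG-13, and 818 and 2423 for the interaction. Of the 45 genes, doxycycline against control then gave 2 higher and 8 lower, the combination against dTAG-13 3 and 8, and the interaction 4 and 5. The median of the 45 turned to 0.040 for dTAG-13 against control and to -0.020 for the combination against dTAG-13, and Rpa1 for dTAG-13 against control to 0.028. With no filter, and with the compared groups alone, doxycycline gave 2 higher.

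The length and GC correction gave 10 higher for dTAG-13 against control (all genes: 23.5%) and 12 for the combination against doxycycline (25.2%). The correction gave 8 higher for the combination against dTAG-13 (all genes: 9.47%) and 17 for the interaction (15.5%). It turned Orc6 (-0.067), Prim1 (-0.017), Pcna (-0.11), Rfc4 (-0.14), Rpa1 (0.11), Rpa2 (-0.0069) and Slbp (-0.066) for dTAG-13 against control. It turned Mcm5 (0.027), Gins1 (-0.092), Pold1 (0.11), Rpa1 (0.20), Rrm2 (-0.13) and Slbp (-0.068) for the combination against doxycycline, and Rpa3 (-0.00030) for the combination against dTAG-13. The cause was not tested.

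With single libraries left out, the counts of the 45 that were higher ran from 0 (without control replicate 2) to 2 for doxycycline, 13 to 17 for dTAG-13 against control, 18 to 20 for the combination against doxycycline, 3 (without combination replicate 1) to 7 for the combination against dTAG-13 and 7 to 11 for the interaction. Those lower ran from 8 (without doxycycline replicate 2) to 15, 20 to 22, 20 to 22, 2 to 4 and 0 (without combination replicate 1) to 2. Medians ran from -0.071 to -0.025, -0.074 to -0.026, -0.060 to -0.029, 0.0070 to 0.025 and 0.060 to 0.094.

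Replicate numbers did not pair the libraries: deviations from group means correlated at -0.021 to 0.080 over 18 pairs of the same number and at -0.061 to 0.066 over 36 pairs of different numbers. With the replicate number as a block, the counts higher and lower were 1 and 15, 16 and 21, 20 and 21, 5 and 3, and 8 and 1, in the same order; Mcm5 against doxycycline and the interaction of Pola1 were no longer called. Each of these genes had 585 reads or more in every library, so depth limits small differences rather than detection. Each treatment was 1 culture.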
